A study of Mus musculus with 8 samples.

Results

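The 10 genes described here encode the main steps of MHC class I antigen presentation in mouse macrophages. They are the heavy chains H2-K1 and H2-D1, their light chain B2m, the peptide transporter genes Tap1 and Tap2, the loading factor Tapbp, the immunoproteasome subunits Psmb8, Psmb9 and Psmb10, and the transcriptional activator Nlrc5. They were chosen by name as members of this pathway, with earlier results of these data known. All 10 were found among the 55357 genes of the count table, and all 10 had enough counts to be tested.

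Bone marrow-derived macrophages (BMDM), grown from C57BL/6J marrow in medium with the growth factor M-CSF, received So(d18:1), the sphingosine with an 18-carbon chain and 1 double bond, at 2 μM for 6 h. Control BMDM received its solvent, methanol, for 6 h. Poly(A) RNA was sequenced from 4 libraries per group. The labels mention no inflammatory agent in either group, although the study's text describes the BMDM experiment as one under inflammatory stimulation. The labels also do not say whether the libraries of a group came from different mice or cultures. The study's legend for its pathway enrichment describes 4 samples as biologically independent, without saying whether mice or cultures differed. The p-values measure the spread between these libraries, and what part of it is technical is not known.

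MHC class I molecules show peptides from the cell's own proteins to CD8+ T cells. The proteasome cuts the proteins, TAP carries the peptides into the endoplasmic reticulum, tapasin (Tapbp) holds the empty heavy chain with B2m beside the transporter, and loaded molecules move to the cell surface. Interferon raises most of these genes, and Nlrc5 acts on the promoters of the class I genes together with the factors that bind their X and Y boxes. In macrophages the pathway also serves peptides taken up from outside the cell, in cross-presentation.

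Counts per library lay between 17748397 and 26088609, and the members were covered by 796 to 49646 counts per library. Levels are in CPM, counts divided by the TMM-scaled size of the library, as mean ± SD of 4 libraries, and fold changes are So(d18:1) over Control on the log2 scale. The macrophage identity of the cells was checked on 8 marker genes, all counted in every library, whose summed level was 30569 to 32959 CPM in Control and 26423 to 31316 CPM in So(d18:1). Of these 8, Itgam rose and Cd68 and Mertk fell. The summed level of 10 neutrophil genes, all of them counted in every library, was 1700 to 2345 CPM in Control and 1339 to 1519 CPM in So(d18:1), and 5 of the 10 fell. Of 8 T or NK cell genes, 2 were counted in every library and both fell, with the summed level at 21.9 to 28.3 CPM in Control and 15.3 to 19.9 CPM in So(d18:1). The summed level of 6 B cell genes was 119 to 144 CPM in Control and 99.6 to 126 CPM in So(d18:1), and 1 of them fell. Dendritic cell (8 genes, 6 tested), erythroid (6 genes, 1 tested) and stromal or endothelial (7 genes, 6 tested) lists held no gene that passed the test. Their summed levels were 18.1 to 27.4, 0.673 to 2.02 and 19.2 to 34.02 CPM over all libraries. No listed marker of these 7 lists was at 0 in all 8 libraries. In bulk RNA, fewer cells of a type and less RNA per cell cannot be told apart, and the part of these cells in the class I values below was not tested.

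Several steps of the pathway rose by small amounts after So(d18:1), by 10.3% to 21.1%: both TAP subunits, tapasin and the immunoproteasome subunits Psmb9 and Psmb10. B2m and Nlrc5 did not pass the test and lay near or below their Control level. In edgeR's quasi-likelihood test, with Benjamini-Hochberg adjustment over all 14514 tested genes, 5 of the 10 members passed an adjusted p of 0.05 and all 5 rose. The same threshold was passed by 8.94% of all tested genes, 3.87% rising and 5.07% falling. At an unadjusted p of 0.05, 7 members passed, all of them higher. Of all tested genes, 11.4% passed and were higher, and 3393 of 14514 passed in either direction. None of the 10 reached the study's threshold, an unadjusted p of 0.05 with a fold change of at least 1.5, which 3.89% of tested genes did. The members' log2 fold changes had a median of 0.15 and ran from -0.087 to 0.28, beside a median of 0.0036 over all tested genes. In 6 members every So(d18:1) library lay above every Control library, which was so for 7.14% of all tested genes. Without Control replicate 3, the highest in class II genes, and So(d18:1) replicate 3, the highest in interferon-stimulated genes, 4 members passed, beside 858 of 14576 tested genes. Tapasin lost its call there (edgeR adjusted p = 0.0620), with a log2 fold change of 0.16 against 0.14 with all libraries.

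**Figure D1:**
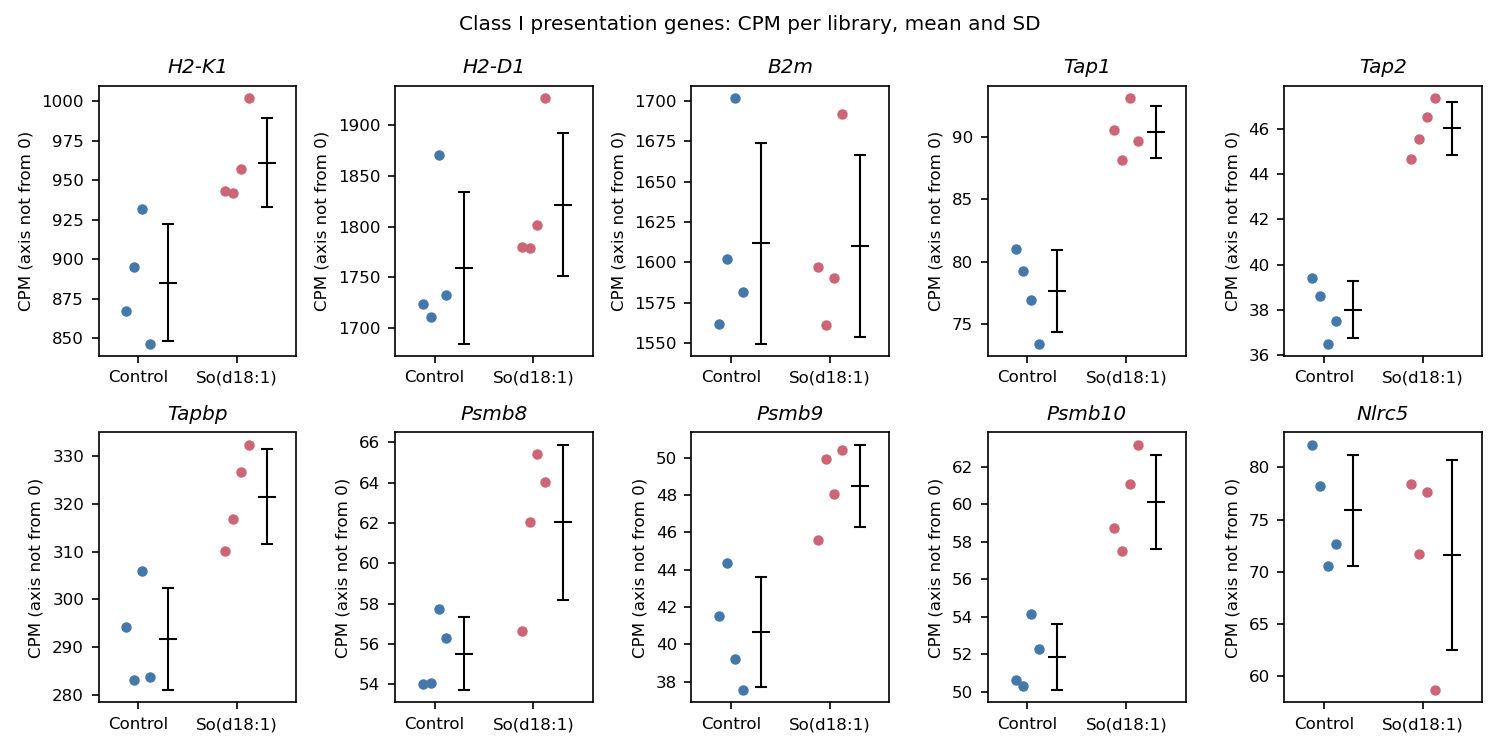
Level of each of the 10 members in CPM (vertical axes, which do not start at 0) in the 4 Control and 4 So(d18:1) libraries, with points for libraries and bars for mean ± SD. The groups do not overlap for Tap1, Tap2, Tapbp, Psmb9, Psmb10 and H2-K1, and they overlap for H2-D1, B2m, Psmb8 and Nlrc5.

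The TAP transporter is a dimer of Tap1 and Tap2, and its transport of peptides into the endoplasmic reticulum needs both. Tap2 (ENSMUSG00000024339, chr17:34203527-34216321, plus strand, mm10) was at 39.4, 38.6, 36.5 and 37.5 CPM in Control replicates 1 to 4 and at 44.6, 45.6, 46.5 and 47.3 CPM in So(d18:1) replicates 1 to 4. It had the largest rise of the 10 members, from 38.0 ± 1.27 to 46.0 ± 1.17 CPM (log2 fold change 0.28, SE 0.053, edgeR adjusted p = 0.00172), which is 21.1% with a 95% interval of 12.2% to 30.8%. Every So(d18:1) library lay above every Control library.

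Tap1 (ENSMUSG00000037321, chr17:34187553-34197225, plus strand) was at 81.0, 79.3, 76.9 and 73.4 CPM in Control and at 90.6, 88.2, 93.2 and 89.7 CPM in So(d18:1). It rose from 77.6 ± 3.29 to 90.4 ± 2.09 CPM, again with no overlap (log2 fold change 0.22, SE 0.046, edgeR adjusted p = 0.00368). Unscaled, Tap1 was at 77.6 CPM and Tap2 at 38.0 CPM in Control. Per kilobase of annotated gene length, Tap1 was at 14.2 and Tap2 at 10.1 CPM per kb in Control, and at 16.5 and 12.2 CPM per kb in So(d18:1). Annotated length need not equal the length of the transcripts present, so levels per kilobase compare genes only roughly. Of the sequence of Tap2, 11.6% of 50-base words also occur in other genes, mainly transcripts annotated on the opposite strand (Gm15821 and Gm20496). The strand setting of the counting is not given in the sources used here, so these reads cannot be told apart from those of Tap2.

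Tapasin is the bridge that keeps empty class I molecules at the transporter and favours the exchange of weak peptides for strong ones. Tapbp (ENSMUSG00000024308, chr17:33915899-33929292, plus strand) was at 294, 283, 306 and 284 CPM in Control and 310, 317, 327 and 332 CPM in So(d18:1). The groups did not overlap, though the highest Control library and the lowest So(d18:1) library were close. The rise, from 292 ± 10.8 to 322 ± 10.0 CPM, was the smallest of those called (log2 fold change 0.14, SE 0.043, edgeR adjusted p = 0.0422). Its call was lost when any library other than Control replicate 3 or So(d18:1) replicate 1 was left out, with an adjusted p of up to 0.123 (without Control replicate 4), and 23.2% of its 50-base words occur in other genes, among them the overlapping Zbtb22.

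The immunoproteasome is the form of the proteasome in which Psmb8, Psmb9 and Psmb10 take the places of the catalytic subunits Psmb5, Psmb6 and Psmb7, and its cuts leave more of the peptide ends that class I molecules bind. Psmb9 (ENSMUSG00000096727, chr17:34181987-34187764, minus strand) was at 41.5, 44.4, 39.2 and 37.6 CPM in Control and 45.6, 49.95, 48.1 and 50.4 CPM in So(d18:1). It rose by 19.4%, from 40.7 ± 2.96 to 48.5 ± 2.19 CPM (log2 fold change 0.26, SE 0.060, edgeR adjusted p = 0.00912). All So(d18:1) libraries were above all Control libraries, with Control replicate 2 nearest to them. Exons of Psmb9 and Tap1 overlap on opposite strands, and 4.19% of the 50-base words of Psmb9 occur in Tap1. Of the words of Tap1, 3.33% occur in other genes, Psmb9 among them. With the strand setting unknown, reads of the overlap cannot be told apart.

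Psmb10 (ENSMUSG00000031897, chr8:105935735-105938444, minus strand) lies outside the MHC. It was at 50.6, 50.3, 54.1 and 52.3 CPM in Control and 58.7, 57.5, 61.1 and 63.2 CPM in So(d18:1), again without overlap. The rise was 16.02%, from 51.8 ± 1.76 to 60.1 ± 2.52 CPM (log2 fold change 0.21, SE 0.051, edgeR adjusted p = 0.0102). None of its 50-base words occurs in another gene.

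Psmb8 (ENSMUSG00000024338, chr17:34197721-34201454, plus strand) was at 54.0, 54.1, 57.7 and 56.3 CPM in Control and 56.6, 62.0, 65.4 and 64.0 CPM in So(d18:1). So(d18:1) replicate 1 lay within the Control range and the other So(d18:1) libraries above it. The difference, 55.5 ± 1.81 against 62.0 ± 3.85 CPM, missed the threshold (log2 fold change 0.16, SE 0.053, 95% interval 0.050 to 0.27, edgeR adjusted p = 0.0646). Without So(d18:1) replicate 1 it passed (log2 fold change 0.20, adjusted p = 0.0260). Per kilobase of annotated length in Control, Psmb10 was at 30.4 ± 1.03, Psmb8 at 16.4 and Psmb9 at 11.1 CPM per kb. This order of Psmb10 and Psmb8 rests on their annotated lengths of 1705 and 3381 bases. Unscaled, Psmb8 was higher in Control, at 55.5 CPM against 51.8 CPM for Psmb10.

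The subunits that the immunoproteasome replaces stayed within the spread of the libraries. Psmb5 averaged 29.4 ± 3.94 CPM without and 30.7 ± 2.70 CPM with So(d18:1), Psmb6 67.7 ± 6.44 and 69.9 ± 3.74 CPM, and Psmb7 36.0 ± 2.26 and 36.1 ± 2.98 CPM, with edgeR adjusted p-values of 0.688, 0.704 and 0.980. Of the 14 genes of the constitutive 20S core, none rose or fell in edgeR's test at the adjusted threshold, 1 had an unadjusted p under 0.05, and their median log2 fold change was 0.047. Among 27 genes of the regulatory particles and assembly factors, the median log2 fold change was 0.010 and only Pomp passed, the chaperone that brings the core together (84.2 ± 1.87 to 96.8 ± 4.46 CPM, log2 fold change 0.20, edgeR adjusted p = 0.00728). Psme1 and Psme2, which form the interferon-inducible PA28 activator, had log2 fold changes of 0.11 and 0.15 and did not pass (edgeR adjusted p = 0.201 and 0.102).

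At the RNA level, each immunoproteasome subunit was also set against its counterpart as a ratio of CPM in the same library. Exchange of subunits in the assembled proteasome was not measured. The ratio of Psmb10 to Psmb7 was 1.55, 1.37, 1.43 and 1.42 in Control and 1.75, 1.61, 1.77 and 1.57 in So(d18:1), so that the groups did not overlap. The two-sided exact permutation test gave p = 0.0286, the smallest that 4 against 4 libraries allow, and 0.0857 after Benjamini-Hochberg adjustment over the 3 ratios. The ratio of Psmb9 to Psmb6 was 0.608 ± 0.0940 in Control and 0.695 ± 0.0455 in So(d18:1) (exact permutation p = 0.171, adjusted 0.257). For Psmb8 to Psmb5 it was 1.91 ± 0.234 and 2.02 ± 0.142 (exact permutation p = 0.371, adjusted 0.371), and 54.1% of the 50-base words of Psmb5 are shared with other loci, pseudogenes included. None of the ratios passed after adjustment.

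**Figure D2:**
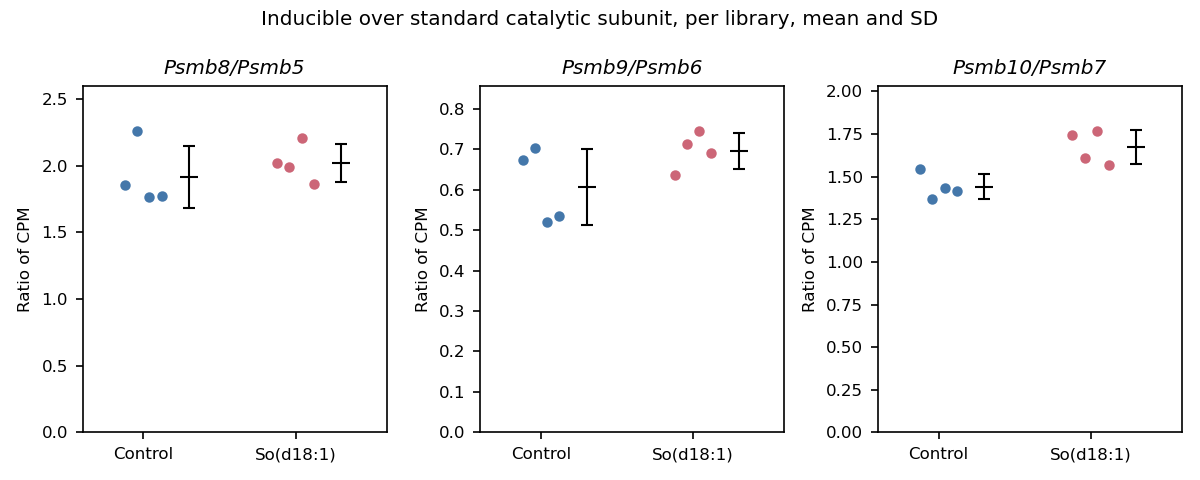
Ratio of CPM of each immunoproteasome subunit to the constitutive subunit it replaces (vertical axes) in every Control and So(d18:1) library, with mean ± SD of 4 libraries. Psmb10 over Psmb7 ran from 1.37 to 1.55 in Control and from 1.57 to 1.77 in So(d18:1), while the groups overlap for the other ratios.

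H2-K1 and H2-D1 are the classical class I heavy chains of this strain, the molecules that hold the peptide at the cell surface. With B2m they were the most abundant of the members per kilobase. H2-K1 (ENSMUSG00000061232, chr17:33996017-34000347, minus strand) was at 867, 895, 932 and 847 CPM in Control and 943, 942, 957 and 1002 CPM in So(d18:1). The groups did not overlap, and the means were 885 ± 37.0 and 961 ± 28.0 CPM. The log2 fold change of 0.12 (SE 0.043, 95% interval 0.029 to 0.21) did not pass after adjustment (unadjusted p = 0.0121, edgeR adjusted p = 0.0936).

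H2-D1 (ENSMUSG00000073411, chr17:35262730-35267499, plus strand) was at 1724, 1711, 1871 and 1732 CPM in Control and 1780, 1779, 1801 and 1926 CPM in So(d18:1). The groups overlapped because Control replicate 3 lay above the lower 3 So(d18:1) libraries. The means were 1760 ± 74.8 and 1822 ± 70.7 CPM (log2 fold change 0.050, 95% interval -0.043 to 0.14, edgeR adjusted p = 0.545). Of the 50-base words of H2-K1 and H2-D1, 9.63% and 12.8% occur in other genes, mostly other heavy chains, so the division of reads among these genes is uncertain. The counts of 21 heavy chain genes were therefore also summed, with 86.2% to 88.0% of the sum from H2-K1 and H2-D1. The sum went from 3034 ± 108 CPM (Control) to 3218 ± 98.3 CPM (So(d18:1)), a log2 difference of 0.085 (SE 0.043) that did not pass (edgeR adjusted p = 0.235).

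B2m (ENSMUSG00000060802, chr2:122147686-122153083, plus strand) is the invariant light chain, needed for the folding of every class I heavy chain. It was at 1562, 1602, 1702 and 1581 CPM in Control and 1597, 1561, 1590 and 1692 CPM in So(d18:1), with the groups overlapping almost fully. The means were 1612 ± 62.1 and 1610 ± 56.6 CPM (log2 fold change -0.0014, SE 0.043, edgeR adjusted p = 0.990), and its sign turned with library size alone in place of TMM (log2 fold change 0.0052). The 95% interval ran from -6.17% to 6.38%, so a change of the size measured for Tap2 lay outside it. Per kilobase of annotated length B2m was at 1874 CPM per kb in Control, H2-D1 at 682 and H2-K1 at 301 CPM per kb. Unscaled, H2-D1 was above B2m in Control, at 1760 CPM against 1612 CPM.

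Nlrc5, the activator that class I genes share, had a wide spread. Nlrc5 (ENSMUSG00000074151, chr8:94434356-94527272, plus strand) was at 82.2, 78.2, 70.5 and 72.6 CPM in Control and 78.4, 71.7, 77.6 and 58.6 CPM in So(d18:1). So(d18:1) replicate 4 was the lowest of the 8 libraries, and the other So(d18:1) libraries lay within the Control range. The means were 75.9 ± 5.30 and 71.6 ± 9.14 CPM (log2 fold change -0.087, SE 0.085, edgeR adjusted p = 0.592), with a 95% interval of -17.3% to 7.10%. Without So(d18:1) replicate 4 the log2 fold change was 0.00067.

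Nlrc5 is brought to class I promoters by factors bound to their X and Y boxes, and interferon and NF-kB factors bind further upstream. The promoter of H2-K1 is shown because it holds matches to the NF-kB, interferon factor, X2 and Y motifs. It is the 250 bases before the start of the gene in RefSeq (GRCm38.p6, chr17:34000348-34000597, minus strand, with the NF-kB motif GGGATTCCC, then the X2 box TGACG and, last, the reversed Y box ATTGG in capitals).
H2-K1 promoter: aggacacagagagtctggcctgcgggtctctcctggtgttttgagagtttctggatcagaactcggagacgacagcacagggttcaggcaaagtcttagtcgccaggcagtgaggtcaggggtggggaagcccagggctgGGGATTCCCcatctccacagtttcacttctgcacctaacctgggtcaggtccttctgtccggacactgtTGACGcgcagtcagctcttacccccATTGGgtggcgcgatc

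The X2 to Y stretch is set side by side for the genes that hold it, with the boxes in capitals and every sequence written 5′ to 3′ toward the gene. H2-K1, H2-D1 and B2m share the spacing of 20 bases between TGACG and ATTGG, which is found in 31 of 32851 RefSeq promoters (0.0944%). At Tap1 the 30 bases from its TGACG hold no ATTGG at that spacing.
H2-K1, chr17:34000359-34000388, minus strand: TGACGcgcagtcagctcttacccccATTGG
H2-D1, chr17:35262993-35263022, plus strand: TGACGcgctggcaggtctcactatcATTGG
B2m, chr2:122147609-122147638, plus strand: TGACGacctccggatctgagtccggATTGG
Tap1, chr17:34187470-34187499, plus strand: TGACGacagagggtcctgccctcaatctgg

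The stretch from the NF-kB motif to the core read by interferon regulatory factors (AANNGAAA, here on the other strand) is shown for H2-K1 and H2-D1, and B2m carries a longer interferon core (GAAANNGAA), likewise in capitals.
H2-K1, chr17:34000428-34000457, minus strand: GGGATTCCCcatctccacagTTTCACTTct
H2-D1, chr17:35262924-35262953, plus strand: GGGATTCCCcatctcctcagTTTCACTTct
B2m, chr2:122147540-122147569, plus strand: aagaacatGAAACTGAAaatgggaaagtcc

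On both strands and over 250 bases before to 50 after the start, GGGATTCCC was found in 0.353% of the 32851 promoters, AANNGAAA in 23.9%, GAAANNGAA in 8.56%, TGACG in 20.8% and CCAAT, the Y box on the other strand, in 37.4%. The AANNGAAA and GAAANNGAA matches of B2m overlap. RefSeq promoters were at hand for 8 of the 10 members, and Tap2 and Nlrc5 had none. The windows of Psmb8 and Psmb10 held none of these letters, and those of Tap1, Psmb9 and Tapbp held no AANNGAAA or GAAANNGAA. The members with the X2 to Y spacing (H2-K1, H2-D1 and B2m) had log2 fold changes of 0.12, 0.050 and -0.0014, and none of them passed the test. The promoters of Tap1, Tapbp, Psmb8, Psmb9 and Psmb10 lack that spacing, and of these 5 genes all but Psmb8 rose. The windows of Tap1 and Psmb9 overlap, and their TGACG and CCAAT matches are the same bases of DNA, not at that spacing. Any part of these motifs in the changes was not tested.

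Tap1 and Psmb9 start within 225 bases of each other on opposite strands in RefSeq, and Psmb8 and Tap2 follow downstream of Tap1 in the class II region of the MHC. All 4 of these genes had positive log2 fold changes, and 3 of them rose. Their tested protein-coding neighbours within 100 kb (100000 bases) of the Tap1 start were 6 genes of class II and Brd2, a chromatin reader. None of the 7 passed the test. H2-Ab1, 70.1 kb downstream, had a log2 fold change of -0.82 (edgeR adjusted p = 0.131), H2-Ob, 51.4 kb downstream, of -0.27 (adjusted p = 0.374), and H2-DMb1, 34.5 kb upstream, of -0.14 (adjusted p = 0.204). Brd2 was at 0.10 (adjusted p = 0.119) and H2-Oa at 0.42 (adjusted p = 0.536).

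**Figure D3:**
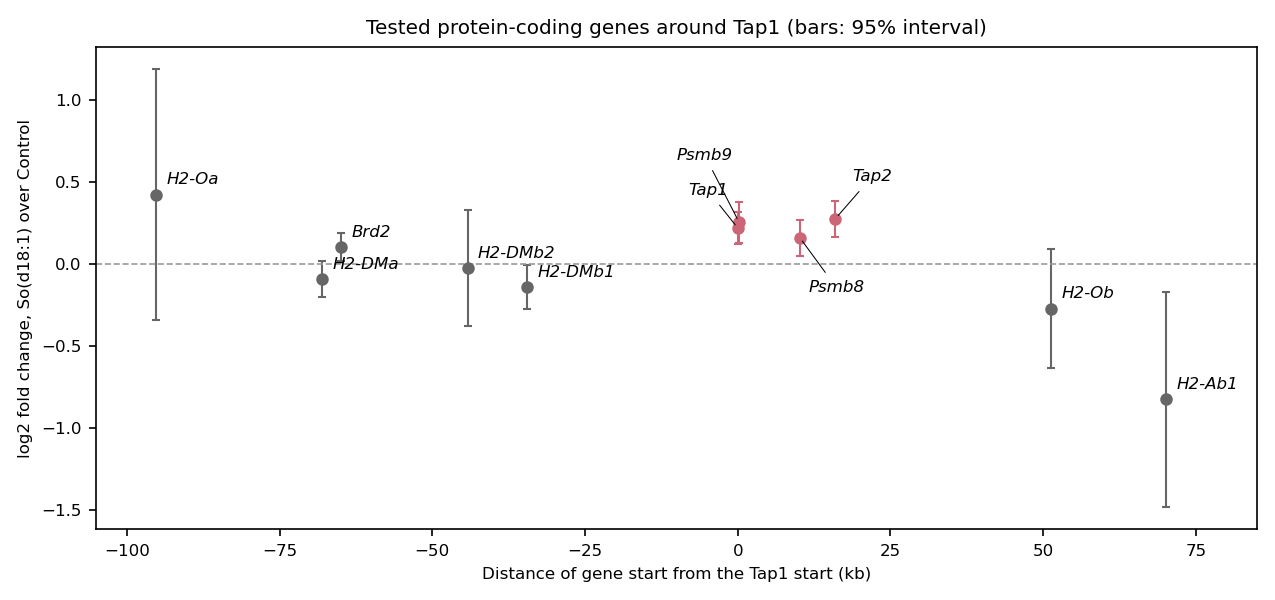
Log2 fold change, So(d18:1) over Control, of 11 tested protein-coding genes (vertical axis, bars are 95% intervals) against the distance of each gene's start from that of Tap1 in kb (horizontal axis). Tap1, Psmb9, Psmb8 and Tap2 lie between 0 and 15.97 kb with log2 fold changes of 0.16 to 0.28, and the intervals of H2-Oa and H2-Ab1 are the widest.

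Class I genes outside the 10 members were tested as a list of 26 names, of which 25 were in the table and 12 had enough counts. Of these 12, 2 rose, 1 fell and 9 did not pass, with a median log2 fold change of -0.0047. The share called was 25%, beside 8.94% of all tested genes. H2-T23, the mouse Qa-1 molecule that shows leader peptides to NK cell receptors, rose from 158 ± 11.5 to 185 ± 8.20 CPM (log2 fold change 0.23, SE 0.051, edgeR adjusted p = 0.00627). H2-T22, a ligand of γδ T cells, rose from 72.7 ± 3.44 to 86.7 ± 1.13 CPM (log2 fold change 0.25, SE 0.046, edgeR adjusted p = 0.00115), but 53.5% of its 50-base words occur in other genes such as H2-T10. Fcgrt, the heavy chain of the neonatal Fc receptor, fell from 363 ± 12.1 to 322 ± 23.1 CPM (log2 fold change -0.17, SE 0.049, edgeR adjusted p = 0.0282).

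Of 18 further genes of peptide loading and trimming, 2 rose, 1 fell and the median log2 fold change was 0.021. The share called was 16.7%, beside 8.94% of all tested genes. Npepps, a cytosolic aminopeptidase able to trim peptides, was at 159 to 178 CPM in Control and 234 to 246 CPM in So(d18:1), a wide gap between the groups. It rose by 42.7% (168 ± 7.95 to 239 ± 5.07 CPM, log2 fold change 0.51, SE 0.044, edgeR adjusted p = 1.11e-07). Tapbpl (TAPBPR), the tapasin relative that edits peptides away from the transporter, rose from 20.6 ± 0.556 to 25.0 ± 1.09 CPM (log2 fold change 0.28, SE 0.066, edgeR adjusted p = 0.0104). Canx, the chaperone calnexin that holds newly made heavy chains, fell from 571 ± 12.7 to 514 ± 15.5 CPM (log2 fold change -0.15, SE 0.041, edgeR adjusted p = 0.0248).

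**Figure D4:**
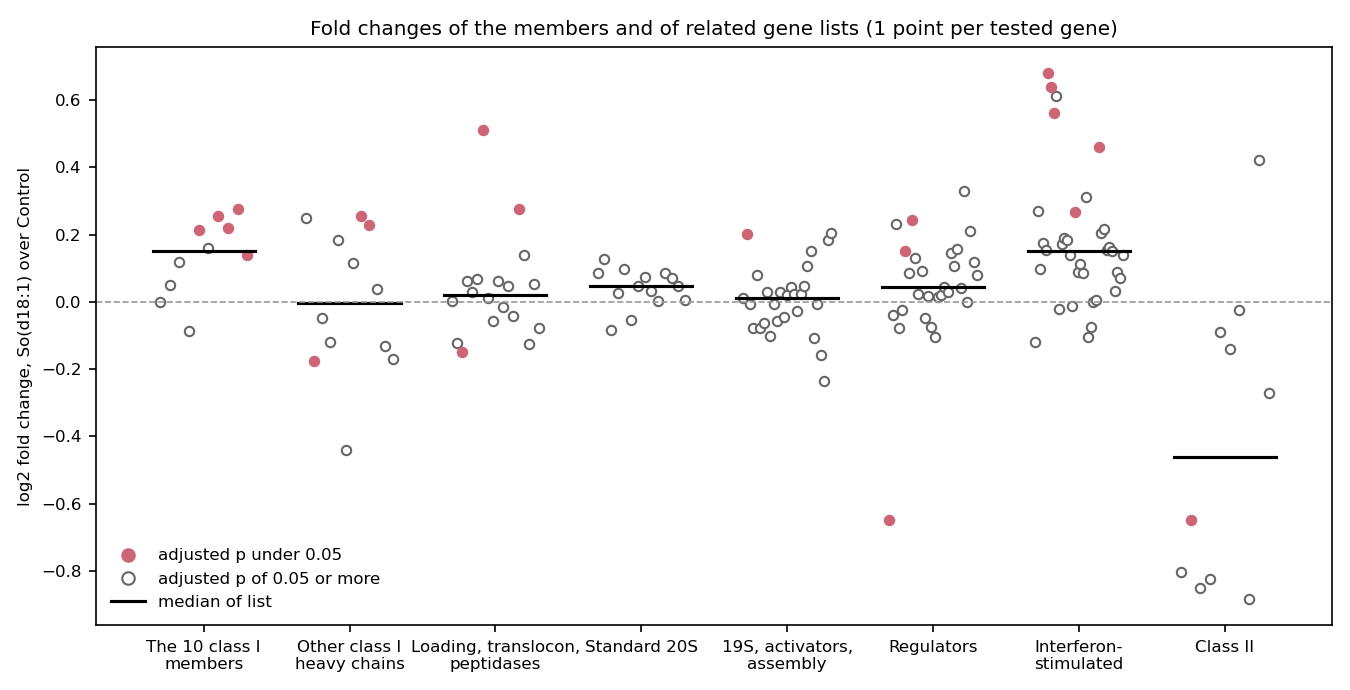
Log2 fold change, So(d18:1) over Control, of every tested gene (points) of the 10 members and of the related lists, with each list's median as a line. The medians are 0.15 for the members, 0.15 for interferon-stimulated genes, 0.047 for the 20S core and -0.46 for class II genes, beside 0.0036 for all tested genes.

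Among 28 regulators of the pathway, 2 rose, 1 fell and the median log2 fold change was 0.044. The share called was 10.7%, close to the 8.94% of all tested genes. Irf1, the interferon factor that acts on the Tap1 and Psmb9 promoters, was at 102, 98.8, 86.1 and 91.3 CPM in Control and 103, 113, 114 and 117 CPM in So(d18:1). The groups were separated by a narrow gap between Control replicate 1 and So(d18:1) replicate 1. Irf1 rose from 94.7 ± 7.35 to 112 ± 6.04 CPM (log2 fold change 0.24, SE 0.055, edgeR adjusted p = 0.00693). Any part of Irf1 in the members' values was not tested. Ifngr1, the ligand-binding chain of the interferon-γ receptor, rose by a log2 fold change of 0.15 (441 ± 23.4 to 489 ± 20.6 CPM, edgeR adjusted p = 0.0461).

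Irf2, Irf8 and Rfx5, a subunit of the X-box factor, had log2 fold changes of 0.13, 0.024 and 0.11 and did not pass (edgeR adjusted p = 0.0645, 0.806 and 0.536). Ciita, the class II counterpart of Nlrc5, fell from 19.1 ± 2.36 to 12.2 ± 2.17 CPM (log2 fold change -0.65, SE 0.116, edgeR adjusted p = 0.00153). It was the 1 of the 10 class II pathway genes that passed. The class II chains H2-Aa and H2-Eb1 had log2 fold changes of -0.85 and -0.88 (edgeR adjusted p = 0.103 and 0.0719), with Control replicate 3 highest for both at 86.1 and 55.4 CPM.

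Of 34 other interferon-stimulated genes, 5 rose, none fell and 28 had a positive log2 fold change, with a median of 0.15. Of all 14514 tested genes, 562 rose and 7387 had a positive log2 fold change. At an unadjusted p of 0.05, 10 of the 34 passed in either direction, beside 3393 of the 14514 tested genes. The guanylate-binding proteins, GTPases that act on vacuoles holding microbes, had the largest changes of those that passed. Gbp2 rose from 50.5 ± 6.07 to 80.9 ± 9.89 CPM (log2 fold change 0.68, edgeR adjusted p = 0.00257) and Gbp3 from 46.2 ± 5.71 to 71.9 ± 6.17 CPM (log2 fold change 0.64, edgeR adjusted p = 0.000257). Gbp5, the RNA sensor Oas3 and the GTPase Igtp rose by log2 fold changes of 0.56, 0.46 and 0.27 (edgeR adjusted p = 0.0168, 0.0298 and 0.0373).

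The mean level of a list in a library was read after centring each gene on its mean over the 8 libraries. For the 10 members it was -0.057, -0.059, -0.046 and -0.11 in Control and 0.040, 0.049, 0.093 and 0.086 in So(d18:1) on the log2 scale. The 34 interferon-stimulated genes were at -0.00033, -0.034, 0.0062 and -0.32 in Control and 0.046, -0.041, 0.38 and -0.034 in So(d18:1). Their groups overlapped, with Control replicate 4 far below the other libraries and So(d18:1) replicate 3 far above them. The same libraries were the lowest Control and the highest So(d18:1) library for the members, at -0.11 and 0.093.

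**Figure D5:**
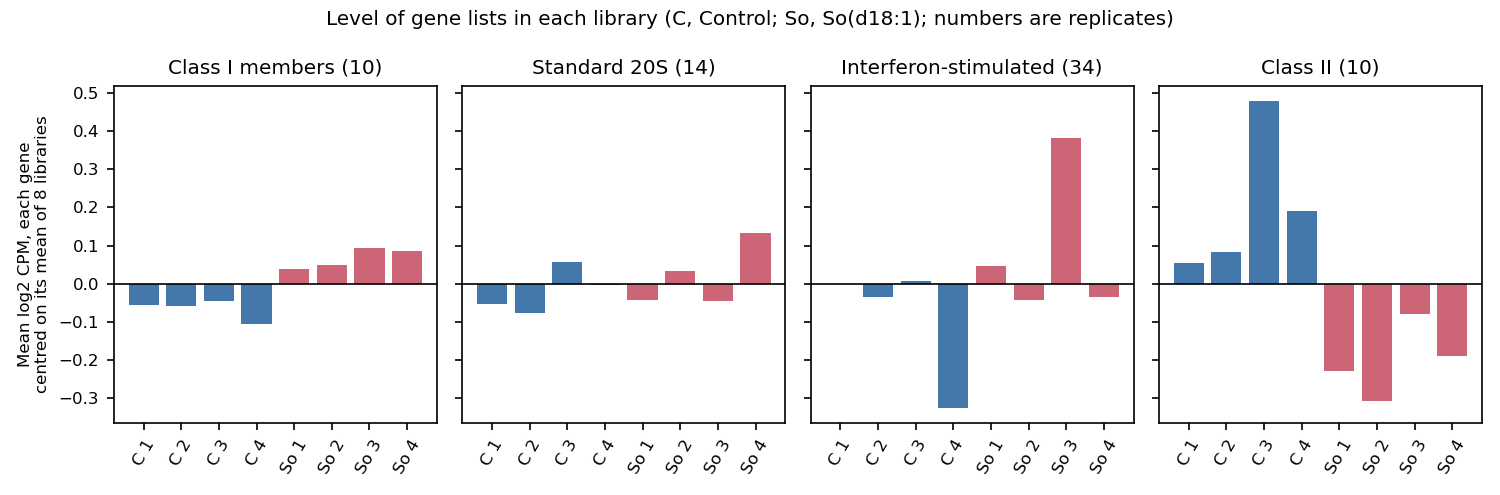
Mean centred log2 CPM of the members and related lists (vertical axis) in each of the 8 libraries. The members ran from -0.11 to -0.046 in Control and from 0.040 to 0.093 in So(d18:1), while the interferon-stimulated genes overlap between the groups, with Control replicate 4 at -0.32 and So(d18:1) replicate 3 at 0.38.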

How the data were processed

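The submitters' processing notes name Trim Galore 0.6.7 for trimming, HISAT2 2.2.1 for alignment to mm10 and featureCounts 2.0.1 for counting on genes. Strand setting, treatment of reads with several matches and annotation are not given in the sources used here. The table deposited by the authors holds raw counts of each gene in each library, beside gene lengths in bases. Reads without molecular identifiers limit precision beyond counting error, and the 4 libraries per group set it here. Symbols came from GENCODE M21 (52081 of 55357 identifiers, and genes without one held 0.169% to 0.325% of counts).

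Counts were filtered by filterByExpr, scaled by TMM (factors 0.989 to 1.01) and tested by the robust quasi-likelihood F test of edgeR 4.0.16 in R 4.3.3, So(d18:1) against Control, with Benjamini-Hochberg adjustment over the 14514 tested genes and a prior count of 2 for log2 CPM. The model was tested on simulated data. Ratios were compared by two-sided exact permutation tests. Sequence shared with other genes was counted in 50-base words of each gene's transcripts. Promoters were taken from RefSeq (GRCm38.p6). Python 3.11.15 with matplotlib 3.10.9 was used for figures.

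The members and lists were chosen with earlier results of these data known. Named were all members, the constitutive counterparts Psmb5, Psmb6 and Psmb7, the regulators Irf1, Irf2, Irf8 and Rfx5, up to 6 genes of each list with the smallest p among those that passed, and the 5 genes most like the members by each measure. A further regulator of that rule is not reported here. Psme1, Psme2, H2-Aa, H2-Eb1, the marker genes and the neighbours of Tap1 were named outside that rule, after their values were seen. Alternatives were other scalings and filters, the DESeq2 1.42.0 Wald test, limma-voom (limma 3.58.1), the replicate number as a block, each library left out, and the joint removal of Control replicate 3 and So(d18:1) replicate 3, which was chosen after seeing the data. Replicate numbers were not taken to pair libraries, since the labels tie them to nothing shared.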

Additional observations from a re-analysis of the deposited data

Results flagged for a closer look

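Dixon's ratio, the gap of the highest or lowest library to its neighbour over the range of its group, was compared with its 95% critical value in 36 groups of 4 libraries. It was exceeded in 3, where chance gives about 1.8. H2-D1 in Control replicate 3 had a ratio of 0.864, at a log2 CPM of 10.87 against 10.74 to 10.76 in the other Control libraries. H2-D1 in So(d18:1) replicate 4 had a ratio of 0.843, at 10.91 against 10.80 to 10.81. The mean centred level of the interferon-stimulated genes in Control replicate 4 had a ratio of 0.878, at -0.32 against -0.034 to 0.0062. None of the other 9 members had such a library in either group.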

How the results depend on the processing

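Tap1, Tap2, Psmb9 and Psmb10 passed the adjusted threshold under all 17 alternatives, and the number of members called ran from 4 to 6. Tapbp lost its call under 8 of the 17, among them upper quartile scaling (0.13, adjusted p = 0.0621) and the joint removal of Control replicate 3 and So(d18:1) replicate 3 (0.16, adjusted p = 0.0620). With one library left out, its log2 fold change ran from 0.12 to 0.17. B2m turned sign with library size alone (0.0052), without a filter on low counts (0.0028) and with the joint removal (0.034), and ran from -0.026 to 0.027 with a library left out. Nlrc5 ran from -0.13 to 0.00067 with a library left out, and was at -0.16 with the joint removal. The number of all genes called was 858 with the joint removal, and 815 to 1370 with a library left out, the lowest without So(d18:1) replicate 2. The number past the study's threshold was 1212 without a filter, where more genes were tested. The members' median was 0.19 without H2-K1 and H2-D1, and 0.13 to 0.18 with a library left out, the highest without So(d18:1) replicate 1. With the replicate number as a block, 1784 genes and 6 members were called, and Psmb8 passed (0.16, adjusted p = 0.0416). Same-numbered libraries correlated at -0.0035 to 0.10 after removal of group means, and 2 of the 4 So(d18:1) libraries were closest to their own number. The causes of these changes were not tested. The summed heavy chains did not pass under any alternative (adjusted p = 0.162 to 0.451).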

Other observations

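Over the 8 libraries, the genes outside the members whose log2 CPM followed the members' mean centred level most closely were Tapbpl (Pearson r = 0.989), Cytip (0.979), Ift57 (0.978), Fam84b (0.978) and Rbms1 (0.975), among 9151 genes with a mean log2 CPM of at least 3. These values are descriptions, since the points share libraries and groups. The members' level did not overlap between the groups, so genes picked this way were likely to differ between them. Their adjusted p-values are therefore descriptions too. Cytip, a scaffold protein that binds the integrin regulator cytohesin, rose from 43.3 to 82.0 CPM (log2 fold change 0.92, SE 0.057, edgeR adjusted p = 8.44e-10). Ift57, a part of the transport complex of cilia, rose from 15.8 to 20.5 CPM (log2 fold change 0.37, edgeR adjusted p = 0.00267), and the RNA-binding protein gene Rbms1 from 221 to 270 CPM (log2 fold change 0.29, edgeR adjusted p = 6.44e-05).

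With each group's mean removed, the closest genes were Tspyl3 (r = 0.976), Slc31a2 (0.965), Map3k20 (0.962), Fcgr1 (0.950) and Fam114a2 (0.942). They were picked as the highest of 9151 genes over 8 libraries. How high r would run by chance was not tested, so these values are descriptions too. None of these 5 genes passed the test between the groups, with log2 fold changes from -0.17 to 0.064.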
